A study of Mus musculus with 17 samples.

Results

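Fibroblasts from mouse embryos with 1 intact allele of Usp28, written +/-, were compared in 2 states: immortalized, and immortalized and then transformed with activated Ras. All cells were C57bl/6 fibroblasts from E13.5 embryos, and all carried the retroviral vector pRetroSuper-shp19ARF, a short hairpin RNA against p19ARF, so the immortalized group carried it as well. The Ras group had in addition received pBabe-HRasG12V, which expresses the activated form of HRas, and pWZL-GFP, a vector for green fluorescent protein. It holds 2 libraries, and the immortalized +/- group holds 3, together 5 of the 17 libraries sequenced. The immortalized +/- cells received neither the HRas nor the GFP vector, and the 2 states come from separate sets of experiments. Ras, the GFP vector and the experiment set therefore cannot be told apart, and the ratios between the states are given as a description without a test. The immortalized libraries are biological triplicates by the series' design, and for the Ras duplicates the labels do not say whether they came from separate cultures. Wild-type (+/+) groups with the same vectors, 3 immortalized and 2 Ras libraries, stand beside them, and the ratio of the states was tested between the genotypes.

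Levels were rebuilt for each group as reads per 1000000 (RPM) from the deposited comparisons, which hold no values per library. Each level is therefore a value of a whole group without a standard deviation. Of 33440 gene IDs in both tables, 16428 that averaged 1 RPM or more over the 2 groups were described, and 9517 were at 0 in both. The depth summed over the libraries was 12.4 M reads (M, 1000000) for the immortalized group and 13.2 M for the Ras group, so that 1 read was worth 0.0804 and 0.0756 RPM. The 5 genes just inside the level limit had means of 1.00033 to 1.00114 RPM, and the 5 just outside had 0.99814 to 0.99995 RPM. Ratios are Ras over immortalized on the log2 scale, centred on the median gene, whose ratio was 0.15 before centring, so that ratios less than this below 0 change sign without centring. Intervals in brackets are 95% counting intervals, and together with the limits that 0 reads allow they cover counting error only. A gene at 0 in a group was set to 3 reads summed over that group, which gives a bound. The counting interval of such a gene reaches nearer to the median gene, for Meg3 to a log2 ratio of -12.66 against a bound of -12.96. In RNA from bulk cultures, fewer cells of a type and less RNA per cell cannot be told apart.

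Usp28 encodes a deubiquitinase that removes ubiquitin chains from proteins and opposes the ubiquitin ligase adaptor Fbxw7, whose known substrates include Myc, Jun and Notch. Ras is a small GTPase at the plasma membrane that, once locked in its active form, drives the Raf, Mek and Erk kinases and through them AP-1 and Ets transcription factors. Fibroblasts normally make and contract a collagen-rich matrix and keep the positional programme of Hox and limb factors of the embryo region they came from, and transformation by Ras is classically accompanied by loss of actin stress fibres and of secreted matrix.

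The targeted gene was measured at 9.96 RPM in immortalized +/- and 18.6 RPM in Ras +/-, a log2 ratio of 0.76 (0.44 to 1.08). In +/+ cells it stood at 16.5 and 26.5 RPM and in -/- cells at 13.3 and 14.8 RPM, so that in the immortalized set the +/- level was the lowest of the 3 genotypes. Fbxw7 had 24.05 RPM in the immortalized and 20.6 RPM in the Ras group, a log2 ratio of -0.37. Hras had 85.0 and 69.9 RPM, a log2 ratio of -0.43, so the transgene does not show as a higher Hras level; how the authors' alignment treated reads of a human HRAS insert is not given in the sources used here. Cdkn2a, the locus of p16INK4a and of the p19ARF transcript that the hairpin targets, had 220.5 RPM in immortalized and 56.8 RPM in Ras cells, a log2 ratio of -2.10. The 2 products of this locus are not separated in the tables.

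Of 10 markers of fibroblasts, the labelled cell type, 9 were described, and the summed level was 30650 RPM in the immortalized and 12810 RPM in the Ras group. Of the 9, 4 were past 4-fold lower in Ras cells and none higher, beside 7.71% and 2.62% of all genes. Their median log2 ratio was -1.42. Col1a1 alone had 7146 RPM in the Ras group, while Pdgfrb had 209 RPM in the immortalized and 7.06 RPM in the Ras group. Vim, the mesenchymal intermediate filament, stood at 4222 and 3555 RPM, whereas the surface marker Thy1 stood at 177 RPM and at 0. Among markers of other cell types, the epithelial genes Epcam, Cldn7 and Krt5 had at most 0.242 RPM, the leukocyte gene Ptprc at most 0.0808 RPM, and the muscle genes Myf5 and Myog were at 0. Other markers on the same lists were present. The 7 skeletal muscle markers summed to 199 RPM in immortalized and 36.4 RPM in Ras cells, most of it from Acta1 and Des, and the 7 neural and Schwann markers summed to 464.5 and 198.5 RPM, most of it from Ncam1 and, in immortalized cells, Nes. The 7 cartilage markers summed to 472 and 47.8 RPM, with Col11a1 at 361 and 29.35 RPM. The 6 endothelial markers summed to 19.9 and 5.82 RPM, the 8 macrophage and leukocyte markers to 19.1 and 26.3 RPM, with Csf1r at 11.8 and 9.09 RPM, and the 6 adipocyte markers to 45.7 and 21.3 RPM. The part of other cell types in the ratios was not tested. The 10 epithelial markers summed to 358 and 1447 RPM, most of it from the keratins Krt8, Krt14, Krt18 and Krt19. Of the sex-linked genes, Xist, the RNA that coats the inactive X chromosome, had 296 RPM in immortalized and 25.5 RPM in Ras +/-, while the Y-linked gene Ddx3y had 7.89 and 12.4 RPM, a log2 ratio of 0.50, and the Y-linked gene Eif2s3y had 0 and 0.151 RPM. In +/+ cells Xist had 89.5 and 336 RPM, Ddx3y 38.4 and 10.75 RPM, and Eif2s3y 18.7 RPM and 0. The part of the embryos' sex in the ratios was not tested. A pair of kits was used to prepare the libraries and the labels do not assign them, so kit and group cannot be told apart; the RNA polymerase III transcript Rn7sk, which carries no poly(A) tail, had 0.321 RPM in the immortalized and 7.54 RPM in the Ras group. As the counting and its use of strand are not given in the sources used here, values of overlapping and antisense genes and of genes with near-identical copies are uncertain.

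More genes lay far below the median gene in Ras cells than far above it. Of the 16428 genes, 1267 (7.71%) were past 4-fold lower in Ras +/- and 431 (2.62%) past 4-fold higher, 10.3% in either direction, and these are the shares against which the gene lists are read. Past 2-fold, 2735 genes (16.6%) were lower and 1996 (12.1%) higher, 28.8% in either direction. The middle of the distribution was narrower, with quartiles at -0.62 and 0.55, and its 5th and 95th percentiles were -3.01 and 1.54. Among the described genes 164 were at 0 in Ras cells and 13 were at 0 in immortalized cells. The genes that took the most reads were matrix and cytoskeletal genes, and their ratios were mostly below 0. Col1a1, the alpha-1 chain of type I collagen, had 17270 RPM in immortalized and 7146 RPM in Ras cells, a log2 ratio of -1.42. Fn1, fibronectin, had 15020 and 3606 RPM, a log2 ratio of -2.21. The chaperone gene Hsp90ab1 had 1898 and 4302 RPM, a log2 ratio of 1.03, and Actb, beta-actin, had 3260 and 3108 RPM.

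**Figure D1:**
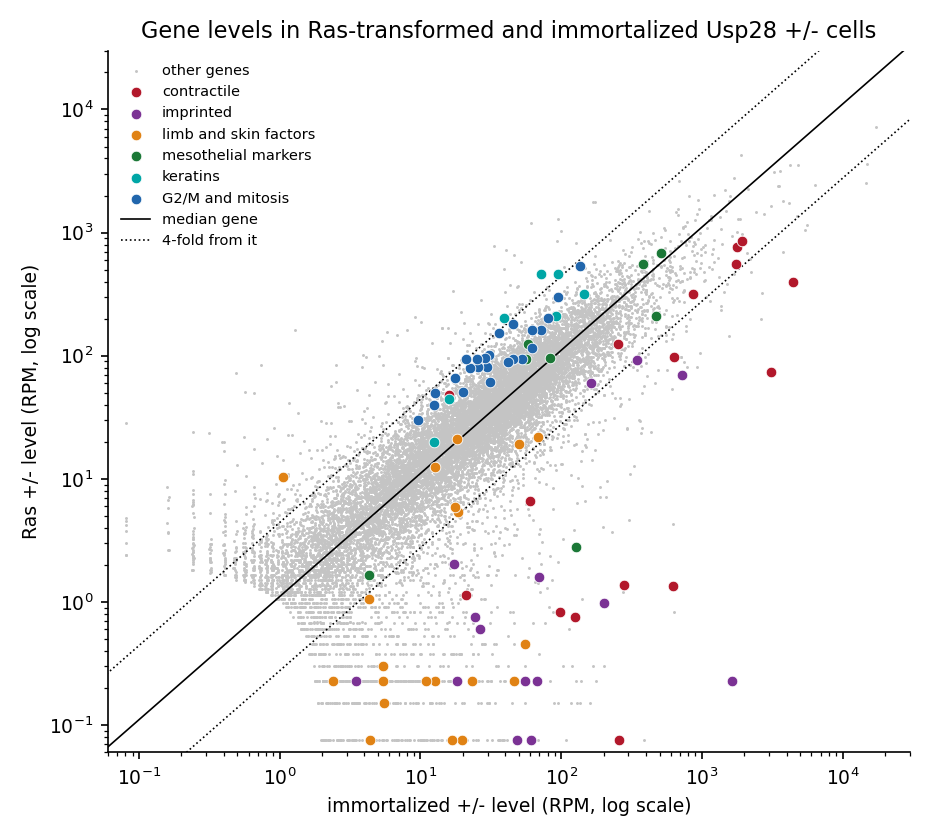
Level of each described gene in immortalized +/- (horizontal) and Ras +/- cells (vertical), in RPM on log axes, with members of 6 gene lists in colour; the solid line is the median gene, the dotted lines lie 4-fold from it, and groups at 0 are drawn at 3 reads. Of the described members, 10 of 16 contractile, 14 of 15 imprinted and 13 of 20 limb and skin factor genes lie below the lower dotted line, whereas the mitosis genes and keratins lie above the solid line.

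The lowest ratios belonged to genes that immortalized cells expressed well above the limit of detection and that Ras cells had at a few reads or none. Meg3, a maternally expressed long noncoding RNA of chromosome 12, had 1631 RPM in immortalized cells and no read in Ras cells, at least 7961-fold lower. Jph2, which ties the sarcoplasmic reticulum to the plasma membrane in muscle, had 386 RPM against 1 read, a log2 ratio of -12.46 (-17.77 to -9.98). Cnn1, the smooth muscle calponin, had 256 RPM against 1 read, a log2 ratio of -11.87 (-17.17 to -9.39). All 3 were thus near the limit of detection in Ras cells. Thy1 was at least 864-fold lower. Col6a3, a chain of the beaded type VI collagen, had 637 RPM in immortalized and 0.831 RPM in Ras cells, 11 reads, a log2 ratio of -9.73. The other genes among the 15 lowest were the protease inhibitor Serpine2, the matricellular Thbs2 and Cthrc1, the glycoprotein Gpnmb, the growth factor Ptn, the lipase Mgll, the lipid phosphatase Plpp3, the proteoglycan Cspg4, and the imprinted Dlk1 and Peg10. They had between 48.5 and 201.6 RPM in immortalized cells and 1 to 4 reads in Ras cells.

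The highest ratios were smaller in size and scattered over functions. Cxcl1, a chemokine that attracts neutrophils, had 0.730 RPM in immortalized and 84.0 RPM in Ras cells, a log2 ratio of 6.70. Jag2, a ligand of Notch receptors, had 0.564 and 50.9 RPM, a log2 ratio of 6.35. Saa3, an acute-phase serum amyloid gene, had 0.661 and 50.2 RPM, a log2 ratio of 6.10. These 3 genes were all below 1 RPM in the immortalized group and above 50 RPM in the Ras group. Nr1h4, the nuclear bile acid receptor, had 3 reads in immortalized cells against 24.2 RPM, a log2 ratio of 6.50 (4.94 to 8.78). Podxl, an anti-adhesive sialomucin of the cell surface, had 5.79 and 156 RPM, a log2 ratio of 4.60, and Celsr1, a cadherin of planar cell polarity, had 2.50 and 84.5 RPM, a log2 ratio of 4.93. The homeobox gene Dlx3, U90926, the semaphorin receptor Plxnb3, the aldehyde dehydrogenase Aldh3a1, the interleukin-22 receptor subunit Il22ra1 and Smpdl3b had log2 ratios of 4.47 to 6.09. Col6a6, Fam163b and Zfp791, with log2 ratios of 4.44 to 4.49, complete the 15. They belong to a group of loci whose ratios were alike among the loci within a genotype, described among the other observations.

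**Figure D2:**
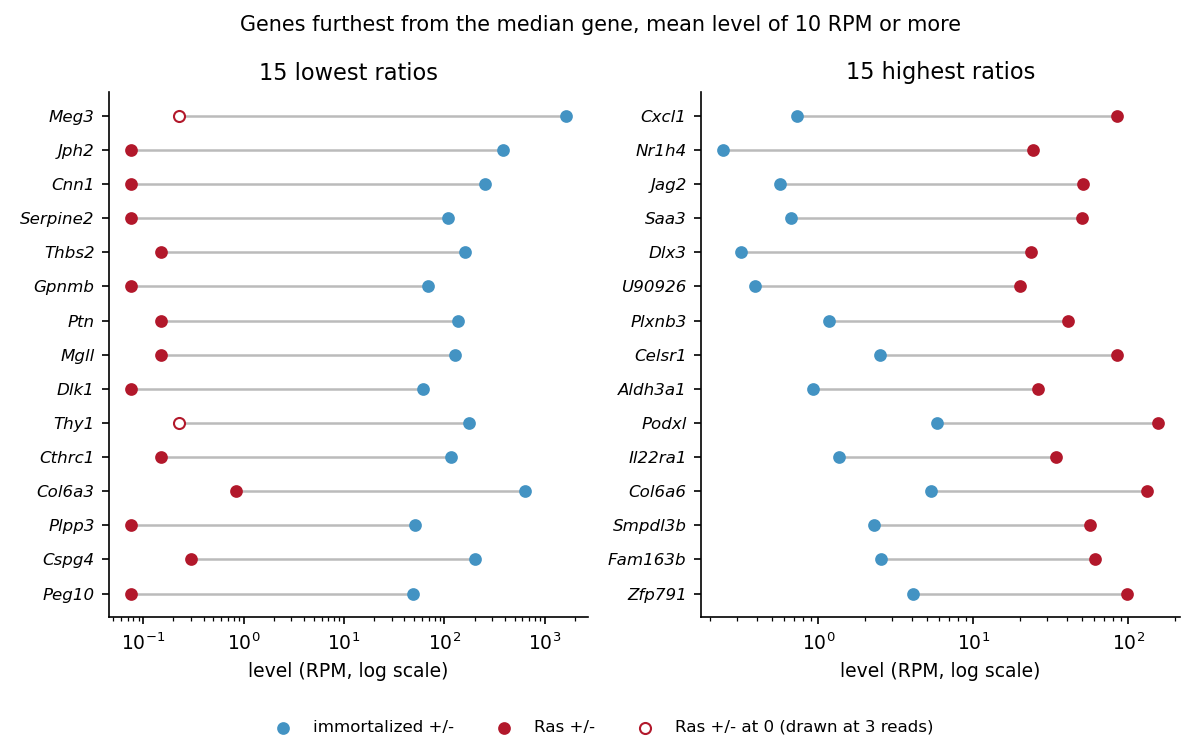
Levels in immortalized (blue) and Ras +/- cells (red), in RPM on log axes, of the 15 genes with the lowest and the 15 with the highest ratio among named genes at a mean of 10 RPM or more; open circles are groups at 0, drawn at 3 reads. The genes on the left had 48.5 RPM or more in immortalized cells and under 1 RPM in Ras cells, and those on the right had under 6 RPM in immortalized cells.

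Matrix genes were low in the Ras group as a class. Of 19 collagen genes, 11 were past 4-fold lower and none higher, with a median log2 ratio of -2.10 and a range of -9.73 to -0.19. Col3a1, type III collagen, had 2627 and 199 RPM, a log2 ratio of -3.87, and Col1a2 had 5570 and 1157 RPM, a log2 ratio of -2.41. The chains of type VI collagen parted, since Col6a1 had 720 and 625.5 RPM and Col6a2 had 436.5 and 424 RPM beside the near absence of Col6a3. Of 21 proteoglycan and elastic fibre genes, 14 were past 4-fold lower and none higher, with a median of -2.75. Ltbp2, a microfibril protein that resembles the latent TGF-beta binding proteins, had 623 and 4.31 RPM, a log2 ratio of -7.32. Mfap2, another microfibril component, had 29.5 RPM and no read, at least 144-fold lower. Dcn, the collagen-binding proteoglycan decorin, stood out with 94.7 and 118 RPM, a log2 ratio of 0.17. Of 12 matricellular genes, 7 were past 4-fold lower and none higher, with a median of -2.44. Postn, periostin, had 138 RPM and no read, and Tnc, tenascin C, had 964 and 105 RPM, a log2 ratio of -3.35.

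The enzymes that remodel matrix parted in direction. Of 22 proteases and inhibitors, 7 were past 4-fold lower and 2 past 4-fold higher, with a median of -1.24. Mmp14, a membrane-bound collagenase, had 775 and 159.5 RPM, a log2 ratio of -2.43. The 2 higher genes were Mmp13, a collagenase, with 9.27 and 95.8 RPM and a log2 ratio of 3.22, and Mmp3, stromelysin, with 8.19 and 37.1 RPM and a log2 ratio of 2.03. These secreted proteases are textbook targets of AP-1, so their promoters are shown. The sequences run from 250 bases before to 50 bases after the gene start, from RefSeq on GRCm38.p6, with the AP-1 letters TGANTCA, which read alike on both strands, in capitals. The Mmp13 window is chr9:7272264-7272563 on the plus strand, with its match at -35 from the start, and the Mmp3 window is chr9:7445572-7445871 on the plus strand, with its match at -46.
Mmp13: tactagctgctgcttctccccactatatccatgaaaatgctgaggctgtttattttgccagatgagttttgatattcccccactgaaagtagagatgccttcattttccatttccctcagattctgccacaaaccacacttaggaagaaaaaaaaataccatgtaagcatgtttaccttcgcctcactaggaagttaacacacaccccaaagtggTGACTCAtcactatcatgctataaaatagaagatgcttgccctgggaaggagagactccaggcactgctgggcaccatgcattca
Mmp3: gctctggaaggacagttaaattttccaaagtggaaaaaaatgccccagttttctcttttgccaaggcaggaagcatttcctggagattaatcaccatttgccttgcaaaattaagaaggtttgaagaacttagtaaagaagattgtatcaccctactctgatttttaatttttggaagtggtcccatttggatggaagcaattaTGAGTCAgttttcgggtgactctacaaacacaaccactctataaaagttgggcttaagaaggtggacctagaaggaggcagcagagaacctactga
Each window holds 1 match. The letters occur in 7.81% of 32851 promoters of this length and in 7 of the 19 promoters found for the protease list (36.8%), which includes genes with low ratios. A match describes the letters only.

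Integrins, the receptors by which cells hold the matrix, had a median of -1.48 over 16 genes, with 7 past 4-fold lower and 1 past 4-fold higher. Itga5, the alpha chain of the fibronectin receptor, had 776 and 174 RPM, a log2 ratio of -2.30, and Itga11, a collagen receptor chain, had 70.0 and 0.378 RPM, a log2 ratio of -7.68. Itgb1, the beta chain that most of them share, had 1381 and 802 RPM, a log2 ratio of -0.93. Itgb7 was the gene past 4-fold higher, with 1.44 and 11.1 RPM and a log2 ratio of 2.80.

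Genes of the contractile actin system were low in the Ras group. Of 16 genes, 10 were past 4-fold lower and none higher, with a median of -3.48. Acta2, smooth muscle alpha-actin, had 4477 RPM in immortalized and 399 RPM in Ras cells, a log2 ratio of -3.63. Tagln, the actin-binding protein SM22, had 3098 and 73.9 RPM, a log2 ratio of -5.54. Myl9, the regulatory light chain of myosin, had 625 and 1.36 RPM, a log2 ratio of -8.99. Tropomyosin genes were less far from the median gene, with Tpm1 at 1912 and 858 RPM, a log2 ratio of -1.30. Mylk, the kinase of the myosin light chain, was the only member with a ratio above 0, at 16.04 and 48.1 RPM and a log2 ratio of 1.44. Contractile genes are known targets of serum response factor, which binds the CArG box, and the 2 promoters of the list with such a box are shown with it in capitals, again from RefSeq on GRCm38.p6. The Myl9 window is chr2:156775214-156775513 on the plus strand, with its box at -161, and the Cnn2 window is chr10:79988350-79988649 on the plus strand, with its box at -56.
Myl9: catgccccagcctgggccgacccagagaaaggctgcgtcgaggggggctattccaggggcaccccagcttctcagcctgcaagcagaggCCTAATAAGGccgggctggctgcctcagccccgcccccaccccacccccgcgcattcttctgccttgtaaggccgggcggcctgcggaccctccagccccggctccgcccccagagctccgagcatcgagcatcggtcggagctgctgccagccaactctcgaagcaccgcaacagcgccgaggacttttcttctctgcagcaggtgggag
Cnn2: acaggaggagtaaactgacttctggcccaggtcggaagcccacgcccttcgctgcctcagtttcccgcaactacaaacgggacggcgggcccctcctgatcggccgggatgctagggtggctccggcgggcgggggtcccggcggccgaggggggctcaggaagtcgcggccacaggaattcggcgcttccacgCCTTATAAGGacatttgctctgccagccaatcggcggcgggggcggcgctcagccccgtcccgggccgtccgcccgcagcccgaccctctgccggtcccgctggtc
The box, which reads alike on both strands, occurs in 2 of 14 promoters found for the contractile list and in 1.63% of all 32851. The 2 genes that hold it had unlike ratios, -8.99 for Myl9 and -1.60 for Cnn2, whose levels were 867 and 317 RPM. That no box was found in the other 12 says only that the letters are not in these windows.

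Positional genes of the limb and body wall were low or undetected in the Ras group. Of 20 limb and skin patterning factors, 13 were past 4-fold lower and 1 past 4-fold higher, with a median of -4.52, although 12 of the 20 were below 1 RPM in 1 group. Pitx1, a homeobox gene of the hindlimb, had 46.5 RPM and no read, at least 227-fold lower, and Tbx4, a T-box gene also of the hindlimb, had 23.2 RPM and no read, at least 113-fold lower. Lhx9, a LIM homeobox gene, had 55.0 and 0.454 RPM, a log2 ratio of -7.07. Tbx15 had 50.1 and 19.3 RPM, a log2 ratio of -1.52. The exception was Pax3, a factor of muscle precursors and neural crest, with 1.06 and 10.3 RPM and a log2 ratio of 3.14. Of 34 Hox genes, 17 were past 4-fold lower and 1 past 4-fold higher, with a median of -2.21, although 14 of the 34 were below 1 RPM in 1 group. Hoxa11 had 12.5 RPM against 1 read, a log2 ratio of -7.52 (-12.82 to -5.01), and Hoxc10 had 18.9 and 0.378 RPM, a log2 ratio of -5.79. Hoxb6 had 7.58 and 0.302 RPM, a log2 ratio of -4.80. Others lay near the median gene, among them Hoxa5 at 4.25 and 4.91 RPM and Hoxb4 at 11.7 and 13.0 RPM. The gene past 4-fold higher was Hoxc13, with 2.30 and 28.3 RPM and a log2 ratio of 3.47.

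Imprinted genes, expressed from 1 parental allele and known in embryonic growth, had the lowest median of the lists, -5.61. Of 15 genes, 14 were past 4-fold lower and none higher, although 10 of the 15 were below 1 RPM in 1 group. H19, a noncoding RNA, had 202 and 0.985 RPM, a log2 ratio of -7.83, and its neighbour Igf2, a growth factor, had 69.8 and 1.59 RPM, a log2 ratio of -5.61. Cdkn1c, a CDK inhibitor, had 18.2 RPM and no read, at least 88.8-fold lower. Grb10, an adaptor that restrains insulin signalling, had 719 and 70.1 RPM, a log2 ratio of -3.51, and Peg3 was nearest to the median gene with 164 and 60.6 RPM, a log2 ratio of -1.58. Meg3, Dlk1, H19, Igf2, Ndn, Cdkn1c and Mest were at 0 or under 1 RPM in Ras +/+ cells, against 6.30 to 491 RPM in immortalized +/+ cells.

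Secreted signals of the fibroblast were low as well. Of 14 Wnt modulators, 8 were past 4-fold lower and 1 higher, with a median of -2.65. Rspo2, which amplifies Wnt signals, had 83.5 RPM against 3 reads, a log2 ratio of -8.67 (-10.95 to -7.12). Lef1, a transcription factor of the pathway, was the higher gene, with 1.18 and 5.74 RPM and a log2 ratio of 2.14. Of 26 TGF-beta and BMP genes, 12 were past 4-fold lower and none higher, with a median of -1.32. Grem1, a BMP antagonist, had 137 and 13.9 RPM, a log2 ratio of -3.45, while the ligand Bmp4 had 43.05 and 93.5 RPM, a log2 ratio of 0.97. Of 13 genes of insulin-like growth factors, 5 were past 4-fold lower. Igfbp3, a carrier of these factors, had 66.4 RPM and no read, whereas the carrier Igfbp4 had 686 and 2630 RPM, a log2 ratio of 1.79.

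**Figure D3:**
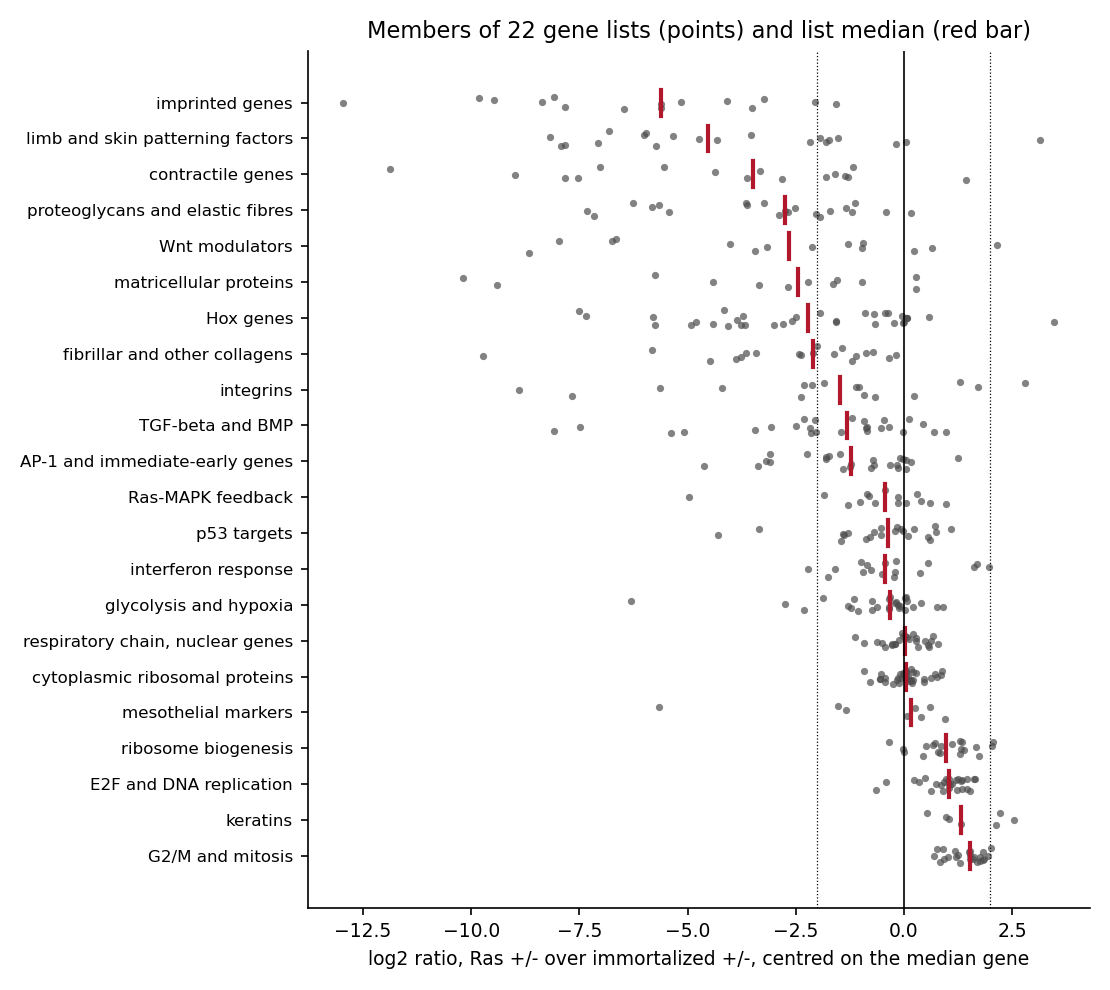
Centred log2 ratio of Ras +/- over immortalized +/- for the described members (points) of 22 gene lists. The lists are ordered by median (red bar), except for interferon response. The solid line is the median gene and the dotted lines lie 4-fold from it. Medians run from -5.61 for imprinted genes to 1.53 for G2/M and mitosis genes.

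Most genes of cell division were higher in Ras cells by small amounts, and all of the mitosis genes were. All 24 G2/M and mitosis genes had ratios above 0, from 0.69 to 2.01, with a median of 1.53, and 19 of them were past 2-fold higher beside 12.1% of all genes. Top2a, the topoisomerase that untangles chromosomes, had 136 and 539 RPM, a log2 ratio of 1.83. Mki67, the proliferation antigen Ki-67, had 94.5 and 303 RPM, a log2 ratio of 1.53. Cenpf, a kinetochore protein, was the only member past 4-fold, with 21.0 and 93.7 RPM. Of 27 E2F and DNA replication genes, 16 were past 2-fold higher and none was past 2-fold lower, with a median of 1.03. Mcm5, a subunit of the replicative helicase, had 88.9 and 302 RPM, a log2 ratio of 1.62, whereas Ccne1, cyclin E1, had 50.1 and 35.6 RPM, a log2 ratio of -0.64. Of 8 replication-dependent histone genes, 6 were past 2-fold lower and none past 2-fold higher, with a median of -1.55. Among ribosome biogenesis genes 10 of 20 were past 2-fold higher, with a median of 0.98. Nolc1 had 98.8 and 448 RPM, a log2 ratio of 2.03, and Ncl, nucleolin, had 422 and 1485 RPM, a log2 ratio of 1.67. Myc itself had 117 and 245 RPM, a log2 ratio of 0.92, while Mycn had 14.8 and 1.44 RPM, a log2 ratio of -3.51.

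Genes for the machinery of the cell in general were close to the median gene. The 36 cytoplasmic ribosomal protein genes had a median of 0.05 and none past 2-fold, and the 25 nuclear genes of the respiratory chain had a median of 0.02 and 1 past 2-fold lower. Of 28 glycolysis and hypoxia genes, 3 were past 4-fold lower and none higher, with a median of -0.32. Adm, adrenomedullin, a hypoxia-inducible peptide, had 16.2 RPM and no read. The 27 genes of sterol and fatty acid synthesis had a median of -0.08, a sign that turns without centring.

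Genes of the Ras pathway lay on both sides of the median gene. Of the 6 Ras genes, Rras was past 4-fold lower, with 824 reads in immortalized and 198 in Ras cells and a log2 ratio of -2.29, and the other members lay between -0.43 and 0.09. Rasgrp3, which loads Ras with GTP, had 43.5 and 5.57 RPM, a log2 ratio of -3.11, the only one of 15 described Ras regulators past 4-fold. The 10 genes of the MAP kinase cascade had a median of -0.14, whose sign turns without centring, and none past 4-fold. Of 15 feedback genes that Erk signals are known to induce, 1 was past 4-fold lower and none higher, with a median of -0.44. Dusp6, the Erk phosphatase, had 98.8 and 214 RPM, a log2 ratio of 0.97, whereas Spry1, an inhibitor of receptor signalling, had 46.75 and 1.66 RPM, a log2 ratio of -4.96. The related Spry2 and Spry4 had log2 ratios of -0.80 and -1.01. Of 25 AP-1 and immediate-early genes, 6 were past 4-fold lower and none higher, with a median of -1.23. Egr1, a zinc finger factor induced within minutes of a stimulus, had 238.5 and 31.1 RPM, a log2 ratio of -3.09, and Ccn2, a secreted matricellular protein, had 2657 and 323 RPM, a log2 ratio of -3.19. Fosl1, the AP-1 subunit Fra-1, had 48.4 and 127 RPM, a log2 ratio of 1.24, and was the highest member. Of 7 ligands of the EGF receptor 2 were past 4-fold higher: Tgfa, with 2.47 and 15.3 RPM and a log2 ratio of 2.48, and Btc, with 0.652 and 8.65 RPM and a log2 ratio of 3.58. Hbegf, the heparin-binding ligand, had 92.8 and 44.7 RPM, a log2 ratio of -1.20.

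Brakes on the cell cycle were lower in part. Of 6 CDK inhibitors 3 were past 4-fold lower: Cdkn1c and Cdkn2a, given above, and Cdkn2b, p15INK4b, with 139 and 36.4 RPM and a log2 ratio of -2.08. Cdkn1a, p21 and a p53 target, had 394 and 168 RPM, a log2 ratio of -1.38. Of 22 p53 targets, 2 were past 4-fold lower, near the share of all genes (7.71%), with a median of -0.37. They were Pmaip1, the proapoptotic protein Noxa, with 29.5 and 1.66 RPM and a log2 ratio of -4.30, and Gadd45a, a stress-response gene, with 24.2 and 2.64 RPM and a log2 ratio of -3.34. Of 24 genes of the unfolded protein and integrated stress responses, 5 were past 4-fold lower and none higher, with a median of -0.75. Atf5, a transcription factor of that response, had 356 and 29.9 RPM, a log2 ratio of -3.72, and the chaperone Hspa5 had 967 and 986 RPM.

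Some keratins and inflammatory signals were past 4-fold higher. Of 7 keratins, 3 were past 4-fold higher and none lower, with a median of 1.33. Krt8 had 71.8 and 465.5 RPM, a log2 ratio of 2.55, and its partner Krt18 had 39.0 and 201.5 RPM, a log2 ratio of 2.22. Krt19 had 94.8 and 460.5 RPM, a log2 ratio of 2.13. All 3 are keratins of simple epithelia and were already present in immortalized +/- cells. In +/+ cells Krt8 and Krt18 were at 3 reads or fewer in both states. The 8 mesothelial markers, genes of the lining of body cavities, which also makes simple keratins, summed to 1697 RPM in immortalized and 1762 RPM in Ras +/- cells. Of these 8, 3 were past 2-fold lower and none higher, beside 16.6% and 12.1% of all genes. Upk3b had 508.5 and 677 RPM and Wt1 had 58.3 and 124 RPM, while Lrrn4 had 128 and 2.79 RPM, a log2 ratio of -5.67. In +/+ cells Upk3b had 1.945 and 0.264 RPM, Wt1 had 0.243 and 0.088 RPM, and Lrrn4 had no read in either state. Msln, another of the 8, had 21.2 and 425 RPM in +/+ cells, against 476 and 209 RPM in +/- cells. The part of a cell type with these markers in the keratin ratios was not tested. Of 19 chemokine and interleukin genes, 4 were past 4-fold higher and 2 lower, with a median of -0.50. Besides Cxcl1 the higher ones were Ccl2, a chemokine for monocytes, with 14.2 and 168 RPM and a log2 ratio of 3.41, Ccl20, with 0.813 and 7.64 RPM and 3.08, and Il33, an alarmin, with 9.13 and 63.1 RPM and 2.64. Cxcl14 had 26.2 RPM and no read, and Il6 had 5.05 and 0.680 RPM, a log2 ratio of -3.04. Of 10 genes of MHC class I presentation 4 were past 4-fold lower, among them Tap1, the peptide transporter, with 7.12 and 0.378 RPM and a log2 ratio of -4.38. Of 17 interferon response genes 1 was past 4-fold lower, with a median of -0.45.

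The ratio in +/- cells was then set against the ratio of the same states in +/+ cells, the only piece of the Ras contrast that comparisons made within each set allow to be tested. A shift of a whole set that touches both genotypes alike drops out of this difference. The test was an approximate Wald test with the dispersion implied by the authors' deposited p-values and Benjamini-Hochberg adjustment over 16489 genes. The ratio was higher in +/- than in +/+ for 1117 genes (6.77%) and lower for 1080 (6.55%), together 13.3%, at an adjusted p under 0.05. The median difference was 0.04 and the median standard error 0.47, so that small differences were seldom called. In data of this size simulated with the dispersions of the test, 53 of 100 differences of 4-fold and 4 of 100 of 2-fold were called. The error rests on 1 dispersion for all genes, and for genes with a larger spread among cultures it is too small. It comes from the libraries of each group, and the sources used here do not say how many embryos or lines these represent. Usp28 genotype and line of origin therefore cannot be told apart in these differences.

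Contractile genes differed between the +/- and +/+ groups, with a lower ratio in +/- for 14 of 16 and a higher one for 1, Mylk. Tagln had 2160 RPM in immortalized and 1129 RPM in Ras +/+ cells, against 3098 and 73.9 RPM in +/- cells. The difference of the log2 ratios was -4.45 with a standard error of 0.44 and an adjusted p of 9.04e-22 by the Wald test. This p-value, like those below, measures the difference against spread among libraries and not between lines. For Acta2, 3942 and 2769 RPM in +/+ stood against 4477 and 399 RPM in +/-, a difference of -2.98. For Myl9, 782 and 126 RPM stood against 625 and 1.36 RPM, a difference of -6.17. In each of these genes the immortalized levels were close and the Ras levels far apart. Limb and skin factors had a lower ratio in +/- for 10 of 27 tested genes and a higher one for 1, and Hox genes for 9 of 31 and 1. Hoxd13, of the digits, had 158 and 136 RPM in +/+ cells against 11.2 RPM and 1 read in +/- cells, a difference of -6.41 with a standard error of 1.26. It thus differed between the genotypes already in immortalized cells.

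Among p53 targets the ratio was lower in +/- for 10 of 22 genes and higher for 2. A lower ratio need not mean a lower level in Ras +/- than in Ras +/+ cells. Cdkn1a had 119 RPM in immortalized and 147 RPM in Ras +/+ cells, against 394 and 168 RPM in +/- cells. Plk2 had 123 and 255 RPM in +/+ cells, against 368 and 404 RPM in +/- cells. Both genes were thus higher in +/- than in +/+ cells in both states. Pmaip1 had 5.40 and 57.2 RPM in +/+ and 29.5 and 1.66 RPM in +/- cells, opposite directions, with a difference of -7.52 (standard error 0.57, adjusted p of 7.85e-37 by the Wald test). Msln, mesothelin, had 21.2 and 425 RPM in +/+ and 476 and 209 RPM in +/- cells, a difference of -5.51. Xist had the values given above and a difference of -5.44. The collagens had a higher ratio in +/- for 4 and a lower one for 6 of 19 genes, and their median difference was -0.05. The mitosis genes had 2 of 24 called, both higher, and the ribosome biogenesis genes none of 20. A ratio not called different is not shown to be alike.

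Genes with a higher ratio in +/- included some at or near 0 in Ras +/+ cells and others well expressed there. Col6a1 had 142 RPM in Ras +/+ cells and a difference of 3.47, and S100a4 had 338 RPM and a difference of 1.39. The 5 highest differences, Pcp4l1, Pdgfb, Igfbp2, Fgf5 and Adgrg2, were 11.70 to 12.20, and all 5 were at 0 in Ras +/+ cells, so their size depends on the 0.5 reads added to each group. With groups at 0 set to 3 reads they were 9.12 to 9.66. Pdgfb, a ligand of PDGF receptors, had 13.65 RPM and no read in +/+ cells, against 2.58 and 38.1 RPM in +/- cells. Fgf5, a fibroblast growth factor, had 9.66 RPM and no read in +/+ cells, against 5.43 and 83.75 RPM in +/- cells. Mmp13, whose promoter is shown above, had 3.44 RPM and 3 reads in +/+ cells against 9.27 and 95.8 RPM in +/- cells, a difference of 6.86 with a standard error of 0.92. Cdh3, P-cadherin, an adhesion protein of basal epithelia, had 156 and 6.36 RPM against 230 and 574 RPM, a difference of 5.93. Krt19 had 44.9 and 71.5 RPM against 94.8 and 460.5 RPM, a difference of 1.61 with an adjusted p of 0.00398 by the Wald test, which was not called once the dispersion was doubled. The 5 lowest differences were those of Gpnmb, Repin1, Slc6a17, Mapk13 and Itm2a, from -9.99 to -8.94. Gpnmb had 91.4 and 153 RPM in +/+ cells, against 68.9 RPM and 1 read in +/- cells.

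**Figure D4:**
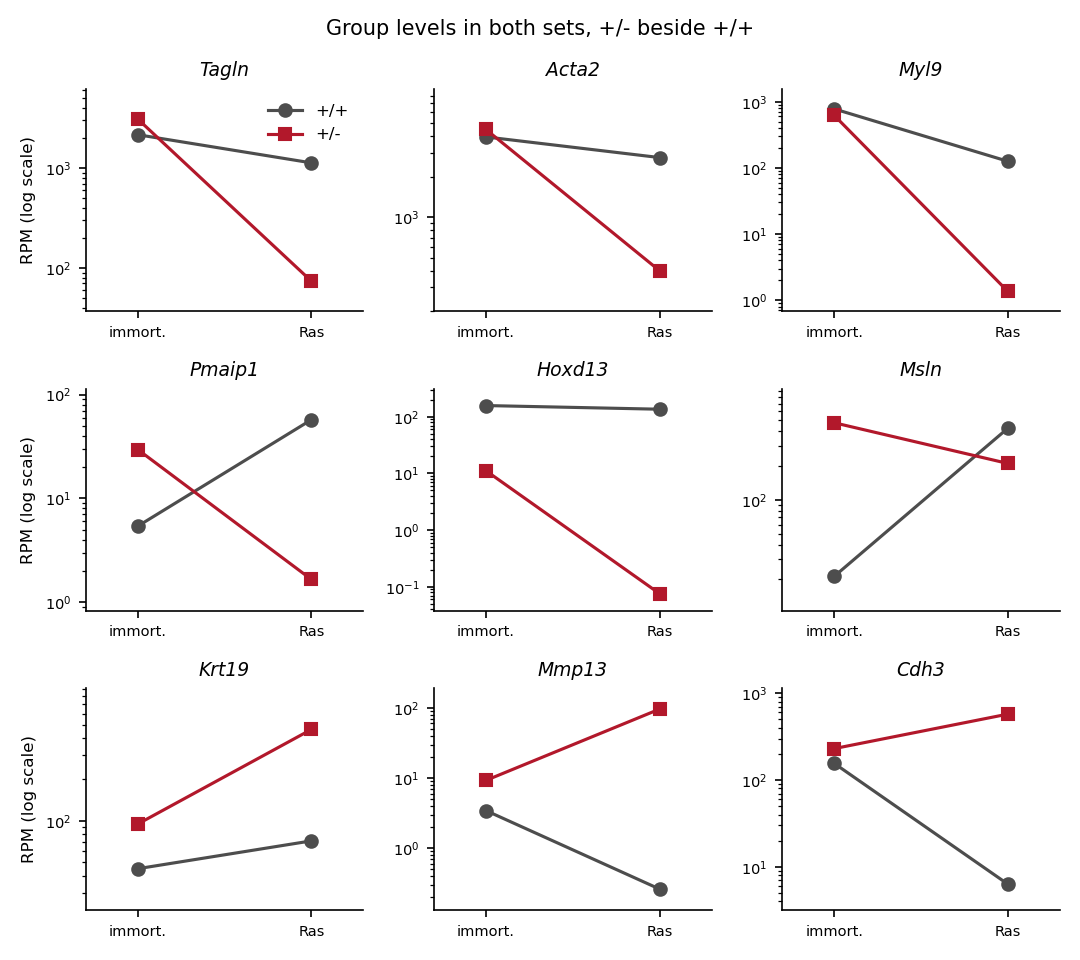
Levels in RPM on log axes (each panel has its own range) of 9 genes whose Ras over immortalized ratio differed between the genotypes, for +/+ (grey circles) and +/- groups (red squares); lines join the 2 states of a genotype, and each point is a group of 3 immortalized or 2 Ras libraries without error bar. For Tagln, Acta2 and Myl9 the immortalized points lie close together and the Ras points apart, and for Pmaip1 the lines cross.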

How the data were processed

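Poly(A) RNA from +/- and +/+ fibroblasts in both states was sequenced, per the labels' protocols, on a Genome Analyzer IIx. The tools named per the submitters' processing notes are CASAVA, FastQC, Bowtie 0.12.8 with the mm9 build, and edgeR for the authors' comparisons; counting, annotation and edgeR's version are not given in the sources used here. Per the file headers, the authors deposited for each comparison with +/+ a log2 concentration, a log2 ratio and a p-value, with no values per library.

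The level of a group was 2 raised to (log2 concentration minus the log2 ratio divided by 2), scaled to 1000000 reads, in RPM. This direction makes the +/+ levels of a table match between its comparisons, with a median log2 difference of 0.001 for the immortalized and 0.000 for the Ras table, against 0.264 and 0.406 with the ratio turned. The smallest values are multiples of a single read, from which the depths followed: 80.7% of the immortalized and 99.97% of the Ras +/- values under 20 reads came to a whole number with a tolerance of 0.1. The tables were joined by Ensembl ID after 35 and 24 repeated lines were dropped, and 97.6% of the shared IDs have a GENCODE symbol. Counting intervals are exact (Clopper-Pearson) at 95%.

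For the tested difference, 1 dispersion per comparison was fitted to the authors' deposited p-values, equal to a spread among libraries (coefficient of variation) of 32.3% for the immortalized and 14.2% for the Ras comparison. The z values rebuilt from it correlated with the deposited ones, across genes, at 0.999 in both. The Wald test was run on data simulated with the same dispersions that the test uses, with 7 calls among unchanged genes. The correlation was taken over the genes used for the fit. Neither can therefore check a dispersion that differs between genes or a spread between lines. Python 3.11.15, numpy 2.4.6, pandas 2.3.3, scipy 1.17.1 and blastn 2.17.0 were used.

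Named by rule were Usp28, Fbxw7, Hras and Cdkn2a, the 15 highest and 15 lowest ratios at a mean of 10 RPM or more, in each list the 2 highest, the 2 lowest and the most abundant member, the 10 most abundant genes, and the 5 highest and 5 lowest differences between the genotypes. The members and the 54 lists (893 genes, 878 matched) were chosen with earlier results of these data known, and genes named beyond the rule were chosen after their values were seen. Some genes that the rule names are not reported here. Alternatives were tried for centring, level limit, fold, added reads, scaling, dispersion and threshold.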

Additional observations from a re-analysis of the deposited data

Results flagged for a closer look

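The ratio of Ras over immortalized cells differed between +/- and +/+ by the test of the difference itself (approximate Wald test, Benjamini-Hochberg adjustment) for 1117 genes with a higher and 1080 with a lower ratio in +/-. The error behind these calls comes from the libraries of each group, so Usp28 genotype and line of origin cannot be told apart in them. The differences of the log2 ratios, +/- minus +/+, were 12.20 for Pcp4l1, 12.15 for Pdgfb, 11.74 for Igfbp2, 11.74 for Fgf5 and 11.70 for Adgrg2. At the other end they were -9.99 for Gpnmb, -9.35 for Repin1, -9.13 for Slc6a17, -9.04 for Mapk13 and -8.94 for Itm2a. Repin1, Mapk13 and Itm2a were at 0 in Ras +/- cells, and with those groups set to 3 reads their differences were -6.76, -6.45 and -6.35.

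Among the genes named after their values were seen, the difference was -4.45 for Tagln, -2.98 for Acta2 and -6.17 for Myl9. It was -7.52 for Pmaip1, -6.41 for Hoxd13, -5.51 for Msln and -5.44 for Xist. It was 1.61 for Krt19, 6.86 for Mmp13 and 5.93 for Cdh3.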

How the results depend on the processing

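No paired analysis was possible because the columns hold comparisons of groups and no values per library, and for the same reason leaving out each replicate was not run. Ratios of low genes are limited by depth, since 3 reads are 0.241 RPM in immortalized and 0.227 RPM in Ras +/- cells. No named ratio past 4-fold and no named difference between the genotypes changed direction under the alternatives tried. For the ratios this could hardly have come out otherwise, because the centre stayed between 0.000 and 0.211 on the log2 scale. Most settings for the differences leave the estimate as it is, so these directions were hardly put to a check. The genes past 4-fold numbered 516 higher and 1162 lower without centring.

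Genes past 4-fold higher numbered 741 with a mean level limit of 0.1 RPM, 236 with 5 RPM and 227 with 1 RPM required in both groups, and 1996 past 2-fold and 162 past 8-fold. Genes past 4-fold lower numbered 686 with 5 RPM and 491 with 1 RPM in both groups, and 2735 past 2-fold and 824 past 8-fold. With 5 RPM, the members past 4-fold lower numbered 6 for Hox genes and 7 for limb and skin factors. With 1 RPM in both groups they numbered 3 for Hox genes, 1 for limb and skin factors, 9 for proteoglycans and elastic fibres, 3 for integrins, 4 for imprinted genes and 3 for Wnt modulators, and 2 chemokines and interleukins were past 4-fold higher. This limit leaves out genes that are near 0 in Ras cells by its construction. Past 2-fold, 5 keratins were higher. With the dispersion doubled, 629 differences between the genotypes were higher and 521 lower in +/-, and at an adjusted p under 0.01 they numbered 727 and 651.

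Of the named genes' values, 2034 stayed within their counting interval and 161 moved beyond it. Of 120 repeats of the named differences, 119 kept their side of the threshold, and Krt19 with the dispersion doubled did not.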

Other observations

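A group of 10 loci of unrelated function had nearly the same ratio. Lars2, Gm15564, AA474408, Il31ra, Il1rapl1, Kcnip1, Dnah7b, Zfp791, Col6a6 and Fam163b had log2 ratios of 4.08 to 4.49 in +/- cells, of 4.60 to 5.44 in +/+ cells and of 1.13 to 2.01 in -/- cells. The loci were picked for this likeness, so the ranges are a description. A comparison of their annotated transcripts with blastn found shared stretches for 7 pairs, 52 to 128 bases long at 84.4% to 98.6% identity. AA474408 and Lars2 share 97 bases at 94.8%, Gm15564 and Lars2 share 72 bases at 98.6%, and Dnah7b and Il31ra share 100 bases at 91.0%. AA474408 pairs also with Gm15564, Dnah7b and Il31ra, and Col6a6 pairs with Kcnip1. No stretch was found for Il1rapl1, Zfp791 and Fam163b. The part of reads shared between loci in these ratios was not tested.

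The median ratio differed between chromosomes. It was 0.51 over the 526 described genes of chromosome 19, where 28.5% were past 2-fold higher, while in +/+ cells the median for chromosome 19 was -0.03. It was 0.27 for chromosome 15 and 0.21 for the X chromosome, and -0.29, -0.27 and -0.23 for chromosomes 7, 6 and 3. In +/+ cells the medians of these chromosomes, in the same order, were -0.15, 0.13, -0.25, -0.13 and -0.0005. The 25 genes of the mitochondrial genome had a median of 0.96 in +/- and 1.71 in +/+ cells. Copy number was not measured.

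Genes of retinoic acid handling, which were not described above, had members far on both sides. Aldh1a2, the enzyme that makes retinoic acid in the embryo, had 41.9 RPM in immortalized +/- and 0.529 RPM in Ras +/- cells, a log2 ratio of -6.45. Aldh1a1, a related enzyme, had 78.7 and 363 RPM, a log2 ratio of 2.06. In the list of retinoic acid and xenobiotic genes, 7 of 19 were past 4-fold lower and 1 past 4-fold higher, beside 7.71% and 2.62% of all genes. Receptors of growth factors also parted: Pdgfrb, the beta receptor of PDGF, had 209 and 7.06 RPM, a log2 ratio of -5.04, and Met, the receptor of hepatocyte growth factor, had 50.5 and 262 RPM, a log2 ratio of 2.23. Hgf, its ligand, had 6.07 RPM and no read.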
